A study of Mus musculus with 2 samples.

Results

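The heat shock proteins and chaperonins of the embryonic mouse brain are described here as 81 protein-coding genes, chosen by symbol: Hsp90, Hspa, Hspb, Hspd, Hspe and Hsph genes, all Dnaj genes and Cct2 to Cct8. They are 81 of the 21474 protein-coding genes and of the 43346 genes with an Ensembl identifier in the deposited gene tables. The annotation lists 82 such symbols, and Hspa14 was not matched by its identifier. The 2 libraries of polyadenylated RNA came from whole brains of mouse embryos (strain C57BL/6J, embryonic day 14.5). The labels number them as biological replicates 1 and 2, and both belong to 1 group of tissue from littermates of both sexes, with no treatment named. No stress was applied, so inducible and constitutive members are compared by their resting levels only. Nothing in the labels says which littermates went into which library, and errors below are the SD over the 2 libraries, which may be technical. No p-value was computed.

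Chaperones help proteins fold, keep them from aggregating and hand damaged ones on for disposal. HSP70 proteins bind short exposed stretches of a client in a cycle driven by ATP, J-domain proteins (the Dnaj genes) deliver clients and start that cycle, and HSP90 acts late, on kinases, steroid receptors and other nearly folded clients. Chaperonins are barrels that enclose a client: TRiC in the cytosol, which folds actin and tubulin, and the HSP60 and HSP10 pair in mitochondria. Some of these genes run in every cell, while others are switched on by the heat shock factor Hsf1 when proteins misfold, and Hsf1 binds inverted repeats of the unit GAA, called heat shock elements.

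The expected counts, which are estimated numbers of read pairs per gene, totalled 107938353 (replicate 1) and 101105391 (replicate 2). The chaperone genes took 0.807% and 0.841% of those on annotated genes. Brain genes were high in both libraries, with all 9 neural markers at 1 TPM or more (the TPM scale corrects for transcript length and adds up to the same total in each library). The libraries differed in regional genes: 7 hindbrain and spinal Hox genes summed to 18.3 TPM in replicate 1, against 146 TPM in replicate 2, and 7 forebrain genes to 567 TPM in replicate 1, against 269 TPM in replicate 2. The 10 cell cycle genes summed to 818 and 436 TPM in replicates 1 and 2, and 5 fibroblast genes to 265 and 520 TPM. None of these markers was listed at 0 in both libraries. In bulk tissue, fewer cells of a type and less RNA per cell cannot be told apart.

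Most chaperone genes were transcribed in this tissue. Of the 81, 69 reached 1 TPM or more in both libraries (85.2%), against 62.2% of all protein-coding genes. The median over the 81 was 19.4 TPM (replicate 1) and 20.2 TPM (replicate 2), while the median over all protein-coding genes was 5.41 and 5.93 TPM. Together the 81 genes summed to 7244 ± 183 TPM (SD, n = 2), or 0.737% of all TPM in replicate 1 and 0.711% in replicate 2. A few genes carried most of this sum: the 13 HSP70 and HSP110 genes summed to 3225 and 2702 TPM in replicates 1 and 2, the 8 genes with a Cct name to 1268 and 1200 TPM, and the 3 HSP90 genes to 1039 and 1321 TPM. The 45 J-domain genes made up the most numerous class, at 28 DNAJC, 13 DNAJB and 4 DNAJA genes, but the 28 DNAJC genes held only 13.3% and 13.6% of the sum. Small heat shock proteins were lowest, with 7 genes at a median of 1.13 and 0.570 TPM.

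**Figure D1:**
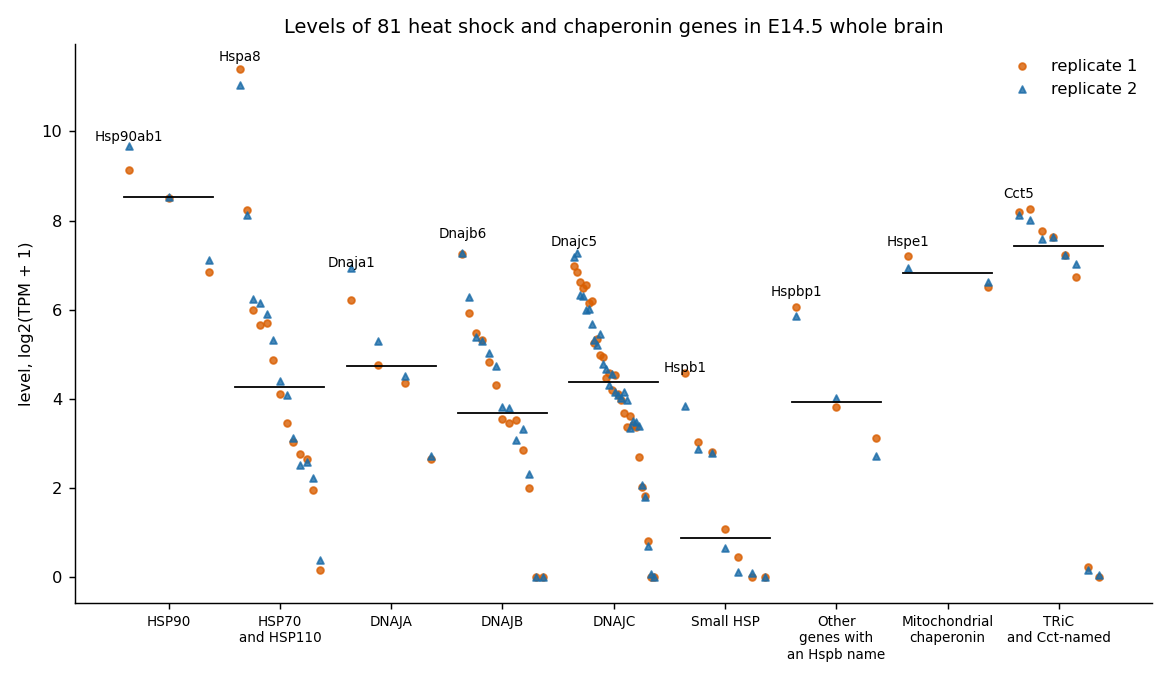
Level of each of the 81 genes as log2(TPM + 1), by family, with replicate 1 as circles, replicate 2 as triangles and the family median of the mean level as a bar. Hspa8 tops the plot at 2405 TPM, and the small heat shock proteins lie near the bottom apart from Hspb1.

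By median, the inducible genes listed stood below the constitutive genes listed, with overlap. The lists were chosen with earlier results of these data known. The constitutive list holds Dnajb6, Dnajc5 and Dnajc7, the highest J-domain genes by mean TPM, and its median falls on these genes in each library. The size of the gap thus depends on which genes were listed. The 8 genes on the inducible list (Hsp90aa1, Hsph1, Dnajb1, Hspb1, Dnajb4, Hspb8, Hspa1b and Hspa1a) had a median of 16.4 and 13.1 TPM in replicates 1 and 2. The 7 constitutive genes matched (Hspa8, Hsp90ab1, Dnajb6, Dnajc5, Dnajc7, Hspa4 and Dnaja2) had a median of 125 and 153 TPM. On the log2(TPM + 1) scale the inducible median minus the constitutive median was -3.21 ± 0.34 (SD, n = 2), at -2.97 in replicate 1 and -3.44 in replicate 2. Counting only transcripts typed protein-coding, a step added after the data were seen, made this -2.49 ± 0.43 (SD, n = 2). All 8 inducible genes reached 1 TPM in both libraries, so none was silent. Where a pair of values carries no label, replicate 1 comes before replicate 2.

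**Figure D2:**
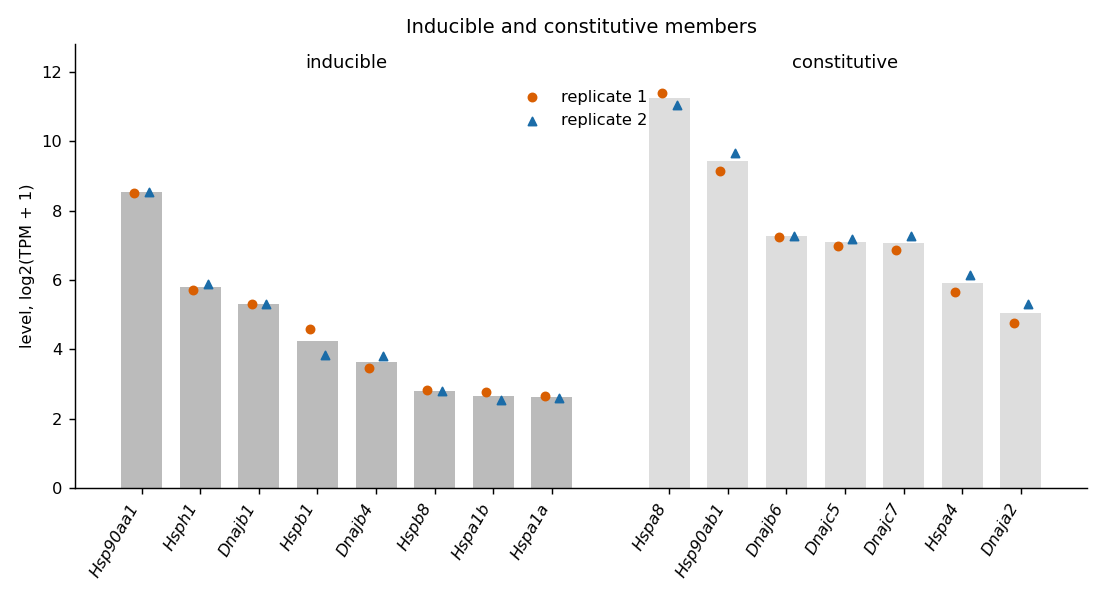
Levels of the 8 inducible genes (left) and the 7 constitutive genes (right) as log2(TPM + 1). Bars give the log2 of the mean TPM plus 1, circles replicate 1 and triangles replicate 2. Hsp90aa1, Hsph1 and Dnajb1 lie above Dnaja2, the lowest constitutive gene, and the other 5 inducible genes lie below it.

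The widest gap between an inducible gene and its constitutive counterpart was in HSP70. Hspa1a and Hspa1b, the near-identical stress-induced HSP70 genes, lie side by side on chromosome 17 of mm10 (34969190 to 34972156 and 34956436 to 34959238, both on the minus strand). Hspa1a stood at 5.25 and 5.03 TPM in replicates 1 and 2. Hspa1b stood at 5.84 and 4.77 TPM. Hspa8, the constitutive HSP70 called HSC70 (chromosome 9, 40800984 to 40810087, plus strand), stood at 2687 and 2123 TPM in replicates 1 and 2, rank 22 among all protein-coding genes by mean level. Each inducible gene was far below Hspa8 in both libraries, and the groups of values do not overlap. The log2 ratio of Hspa1a plus Hspa1b over Hspa8 was -7.84 ± 0.11 (SD, n = 2). Counting only transcripts typed protein-coding narrowed it to -6.81 ± 0.16 (SD, n = 2), and the deposited mm9 values gave -5.70 ± 0.38 (SD, n = 2). The inducible pair made up 0.344% of HSP70 and HSP110 TPM in replicate 1 and 0.363% in replicate 2, while Hspa8 made up 83.3% and 78.6%. Over coding transcripts only, the pair made up 0.746% and 0.616%, and Hspa8 77.5% and 74.7%.

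Reads of these genes are hard to place. Of the windows of 1 read length along the Hspa1a transcript, 51.6% occur in no transcript of another gene, and 46.9% are shared with Hspa1b. The Hspa8 coding transcript had 37.4% such windows, the lowest share among 79 genes examined, and its copies include the pseudogenes Gm15459 and Gm8355. Hspb1 had 43.7%, with the rest shared with Hsp25-ps1, and Hsp90aa1 52.7%. The other genes were mostly distinct, with 65 of 79 at 95% or more. The split between Hspa1a and Hspa1b is therefore uncertain, while their sum does not depend on it.

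The promoter windows of the 2 inducible HSP70 genes are shown because they differ little from each other, and they can be compared with those of genes running at a high level. Capitals mark GAANNTTC or TTCNNGAA, which holds 2 units of the heat shock element. The stretches are RefSeq sequence of GRCm38.p6, the 250 bases before the annotated start (Hspa1a, chr17:34972157-34972406, minus strand; Hspa1b, chr17:34959239-34959488, minus strand).
Hspa1a: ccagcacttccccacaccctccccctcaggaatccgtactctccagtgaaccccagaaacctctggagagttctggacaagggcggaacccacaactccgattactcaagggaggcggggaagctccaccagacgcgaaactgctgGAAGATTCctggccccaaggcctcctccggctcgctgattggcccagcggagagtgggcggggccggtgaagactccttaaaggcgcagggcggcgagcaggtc
Hspa1b: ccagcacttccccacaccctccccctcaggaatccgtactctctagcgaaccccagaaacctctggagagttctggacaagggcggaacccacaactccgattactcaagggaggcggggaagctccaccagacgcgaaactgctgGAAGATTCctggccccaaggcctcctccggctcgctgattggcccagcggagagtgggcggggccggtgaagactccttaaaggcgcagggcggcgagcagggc
Each window held 1 match to 2 units, with its first base at position -104 from the start, and no match to 3 units in perfect form (GAANNTTCNNGAA or TTCNNGAANNTTC). Both strands were searched over windows of 300 bases, from 250 before to 50 after a start. A match is a description of letters, and the absence of one says only that these letters are not in this window.

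RefSeq windows were available for 66 of the 81 genes, as 85 windows, and Hspa8, Hsp90aa1 and Hsp90ab1 were among the 15 genes without one. A match to 3 units was found for 4 of the 66 genes (Dnajb6, Hspd1, Hspe1 and Hsph1), or 6.06%, and for 0.662% of all 27025 genes with a window. These 4 genes hold 3 separate stretches, since Hspd1 and Hspe1 share the same bases. A match to 2 units was found for 28.8% of the 66 genes and for 17.0% of all genes; a match to 3 units contains overlapping matches to 2. Among inducible genes with a window, 6 of 7 had at least 2 units and 1 had 3 units. Among constitutive genes with a window, 1 of 4 had either.
The 3-unit matches of Hsph1, which lies past its start, and of Dnajb6, a constitutive J-domain gene at 152 TPM on average, are shown with the match in capitals (Hsph1, chr5:149636287-149636316, minus strand, 30 bases; Dnajb6, chr5:29735648-29735897, plus strand).
Hsph1: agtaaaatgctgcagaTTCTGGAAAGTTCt
Dnajb6: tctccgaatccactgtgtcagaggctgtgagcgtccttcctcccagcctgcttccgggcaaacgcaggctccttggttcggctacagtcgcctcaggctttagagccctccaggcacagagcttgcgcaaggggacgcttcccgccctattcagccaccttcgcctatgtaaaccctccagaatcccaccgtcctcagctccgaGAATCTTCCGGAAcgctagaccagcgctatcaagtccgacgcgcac
The Dnajb6 match begins at position -46. A perfect 3-unit match was thus present in a gene of the constitutive list and not in either inducible HSP70 window. Units with mismatches were not searched for, so these windows cannot be ranked by how much of the element they hold.

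**Figure D3:**
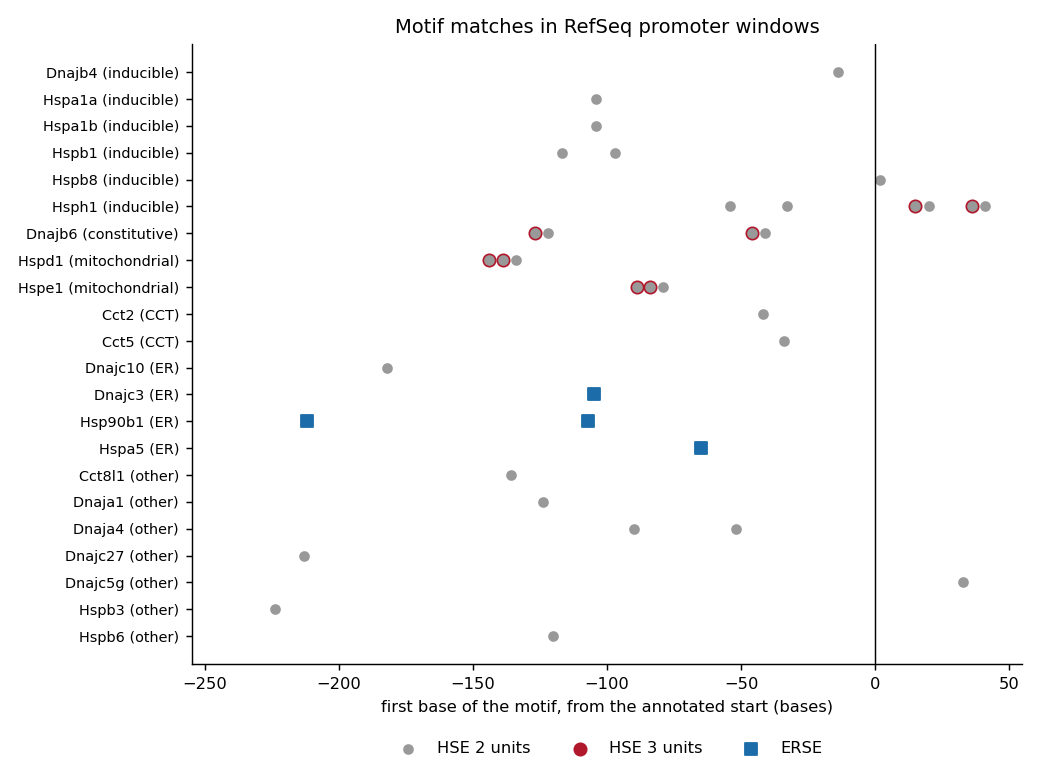
Position of each match in the RefSeq promoter windows of 22 genes, as the first base of the match counted from the annotated start; a gene with several starts has a match for each. Grey points are matches to 2 heat shock units, grey points ringed in red to 3 units, and blue squares to the endoplasmic reticulum stress element. The inducible genes hold mainly 2-unit matches, and the squares fall on Dnajc3, Hsp90b1 and Hspa5.

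In HSP90 the inducible gene was high as well. Hsp90aa1, the inducible alpha form (chromosome 12, 110690605 to 110702728, minus strand), stood at 362 and 371 TPM in replicates 1 and 2. Hsp90ab1, the constitutive beta form (chromosome 17, 45567775 to 45573271, minus strand), stood at 562 and 812 TPM. The alpha form was below the beta form in both libraries. The log2 ratio of Hsp90aa1 over Hsp90ab1 was -0.88 ± 0.35 (SD, n = 2), at -0.63 and -1.13. Hsp90ab1 differed more between the libraries than Hsp90aa1 did, by 1.45-fold against 1.02-fold. Within HSP90, Hsp90ab1 took 54.1% and 61.5% of TPM and Hsp90aa1 34.9% and 28.1%.

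HSP90 co-chaperones load clients and tune its ATP cycle. The 13 genes on their list, which also holds Trap1, itself an HSP90 of mitochondria, all reached 1 TPM in both libraries. Their median was 84.1 and 80.7 TPM in replicates 1 and 2. The 2 highest were Sgta, which handles tail-anchored membrane proteins, at 256 and 206 TPM, and Fkbp4, which serves steroid receptors, at 209 and 189 TPM. Cdc37, the kinase-specific partner, stood at 84.1 and 80.7 TPM. None of the 13 differed 2-fold between the libraries. Of all coding genes whose mean reached 1 TPM, 1.80% were 2-fold higher in replicate 2 and 0.740% were 2-fold lower. With shares this low, finding none among 13 genes does not set the list apart.

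In the HSP110 and HSP40 pairs chosen, the inducible and the constitutive gene were close. Hsph1 encodes HSP105, an HSP110 that releases ADP from HSP70, and stood at 50.9 and 58.6 TPM in replicates 1 and 2. Hspa4, its constitutive relative, stood at 49.2 and 69.9 TPM. The log2 ratio was -0.10 ± 0.21 (SD, n = 2), with opposite signs in the 2 libraries, so no difference larger than their spread was seen. Dnajb1, the HSP40 that partners inducible HSP70, stood at 38.8 and 38.4 TPM in replicates 1 and 2. Dnaja2, a constitutive HSP40, stood at 26.3 and 38.2 TPM. This log2 ratio was 0.29 ± 0.39 (SD, n = 2), again smaller than the spread. The closeness of the HSP40 pair rests on the partner chosen. Dnaja2 was the lowest gene of the constitutive list, and Dnajb6, on the same list, stood at 151 and 153 TPM. Hspa4l, another HSP110, was lower than Hspa4, at 9.95 and 16.0 TPM and a log2 ratio of -2.22 ± 0.13 (SD, n = 2). With coding transcripts only, this ratio was -6.48 ± 3.41 (SD, n = 2), at -8.89 in replicate 1 and -4.07 in replicate 2, so its size depended on which transcripts were counted and on the library.

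Hsph1 can also be read by splicing, since one form of HSP105 lacks an alternative exon that the other holds, and the shorter form is known as the heat-induced one in mouse cells. The exon is shown because its junctions tell the forms apart. It has 132 bases, or 44 codons, at chr5:149623465-149623596 of GRCm38 on the minus strand, with no capitals because no motif is marked.
Hsph1 exon: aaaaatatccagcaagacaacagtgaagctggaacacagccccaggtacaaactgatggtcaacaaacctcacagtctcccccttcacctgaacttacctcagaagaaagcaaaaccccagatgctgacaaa
Reads over the junctions, summed over both libraries by the authors on mm9, gave 604 and 1132 reads for the 2 junctions that include this exon, between 150426040 and 150426171 of chromosome 5, and 14 reads for the junction that skips it. Skipping reads were 2.27% of the reads at one flank (95% exact binomial interval 1.24% to 3.77%) and 1.22% at the other (0.669% to 2.04%). These intervals cover counting error only. Most reads at either flank thus included the exon.

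The small heat shock proteins and their relatives bind unfolding clients without ATP. Hspb1, known as HSP25 in mouse and inducible, stood at 22.8 and 13.3 TPM in replicates 1 and 2, the largest relative difference between libraries among the inducible genes. Hspb8, a small heat shock protein that works with Bag3, stood at 6.04 and 5.92 TPM. Their log2 ratio, Hspb8 over Hspb1, was -1.54 ± 0.53 (SD, n = 2), at -1.91 in replicate 1 and -1.16 in replicate 2, and -0.60 in the deposited mm9 values. Hspb6 stood at 7.22 and 6.37 TPM, and the remaining Hspb2, Hspb3 and Hspb7 at 1.13 TPM or less. Only 19 reads on annotated junctions and 9 on unannotated ones were placed in Hspb1 on mm9, against 1065 and 564 expected counts, and the shared sequence given above touches this gene. Hspbp1, an exchange factor of HSP70, and Hspb11, a protein of cilium transport, carry an Hspb name but belong to other protein families, at 65.5 and 57.2 TPM and at 13.2 and 15.2 TPM. Cryab, the alpha-crystallin that belongs to the same protein family, stood at 3.38 and 3.23 TPM, and the lens form Cryaa below 1 TPM. Markers of striated muscle, a tissue rich in small heat shock proteins, summed to 29.0 and 20.5 TPM in replicates 1 and 2 over 10 genes, with 4 of them at 1 TPM in both. Its part in these levels was not tested.

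Heat shock factor genes were present: Hsf1, the main inducer, stood at 60.4 and 46.1 TPM in replicates 1 and 2, and Hsf2, known from brain development, at 24.3 and 27.5 TPM. Hsbp1, a binding protein of Hsf1, stood at 233 and 230 TPM. Hsf4 and Hsf5 stayed below 1 TPM. Of 11 HSP70 co-chaperones, all were detected, and Bag1, a nucleotide exchange factor, was highest at 81.2 and 89.4 TPM, with Hikeshi, the nuclear importer of HSP70, next at 68.5 and 51.9 TPM. Bag3, itself a known heat shock target, was lowest at 1.88 and 3.26 TPM. Stress-responsive immediate early genes summed to 119 and 96.2 TPM in replicates 1 and 2 over 8 genes, of which 6 were detected. The highest were Dusp1 at 59.5 and 42.8 TPM and Jun at 44.0 and 32.9 TPM, while Fos stood at 1.53 and 1.52 TPM. The part of tissue handling in any inducible gene's level was not tested.

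J-domain proteins spread over a wide range. By TPM, Dnajb6 led at 151 and 153. Dnajc5, the cysteine string protein that guards synaptic vesicles, followed at 125 and 144 TPM. Dnajc7, which binds both HSP70 and HSP90, stood at 115 and 153 TPM. The deposited mm9 values gave another order, with Dnajb6 at 6.59 and 7.97, below Dnajc5 (14.7 and 15.0) and Dnajc7 (13.7 and 12.4). Of the Dnajb6 windows of 1 read length, 65.3% occur in no transcript of another gene. Dnaja1, a farnesylated HSP40, stood at 73.7 and 121 TPM in replicates 1 and 2. Dnajc13, an endosomal protein, stood at 98.3 and 79.2 TPM, and Dnajc8, a nuclear one, at 88.2 and 78.0 TPM. The 8012-nucleotide transcript Dnajc13-201 held only 15.0 and 14.3 TPM, on 8000 and 6833 expected counts. The 398-nucleotide Dnajc13-204 held 47.2 and 35.3 TPM. In the deposited mm9 values Dnajc13 stood at 1.47 and 1.81, below Dnajc8 at 8.72 and 11.4. The 5 J-domain genes with roles in neurons and synapses were all detected, among them Dnajc6, auxilin, which strips clathrin coats, at 30.9 and 43.0 TPM, Dnajb2 at 43.4 and 40.6 TPM, and Dnajb5 at 59.6 and 77.1 TPM. Dnajc9, a histone chaperone, stood at 92.6 and 63.2 TPM in replicates 1 and 2. Beside it the 10 cell cycle genes summed to 818 and 436 TPM, and their part in this difference was not tested.

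The endoplasmic reticulum set, which folds secreted and membrane proteins, was led by Hspa5 and Hsp90b1. Hspa5, the HSP70 called BiP, stood at 299 and 279 TPM in replicates 1 and 2. Hsp90b1, GRP94, stood at 115 and 138 TPM, a log2 ratio over Hspa5 of -1.20 ± 0.26 (SD, n = 2). All 9 genes were detected, down to Dnajc25 at 3.09 and 3.20 TPM. The others were Dnajc10 at 37.2 and 39.2 TPM, Dnajb11 at 27.6 and 31.7, Hspa13 at 16.4 and 20.2, Dnajb9 at 10.7 and 13.2, Dnajc1 at 11.2 and 9.11, and Dnajc3 at 9.40 and 10.1 TPM. Of 15 genes of the endoplasmic reticulum stress pathway, all were detected, with Calr, a lectin chaperone, at 310 and 355 TPM and Atf4, a stress transcription factor, at 295 and 176 TPM.
Promoter windows of Hspa5, Hsp90b1 and Dnajc3 hold the endoplasmic reticulum stress element, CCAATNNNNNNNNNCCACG on either strand, which is bound by Atf6; it was found for 3 of the 66 chaperone genes with a window and 0.137% of all 27025. Capitals mark it in the 250 bases before the start (Hspa5, chr2:34771840-34772089, plus strand; Hsp90b1, chr10:86705445-86705694, minus strand; Dnajc3, chr14:118937682-118937931, plus strand).
Hspa5: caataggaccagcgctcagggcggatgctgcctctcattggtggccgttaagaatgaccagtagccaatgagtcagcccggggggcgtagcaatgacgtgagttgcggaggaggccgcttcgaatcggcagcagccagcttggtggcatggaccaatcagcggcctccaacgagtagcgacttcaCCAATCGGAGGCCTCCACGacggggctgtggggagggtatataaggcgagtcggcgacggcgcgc
Hsp90b1: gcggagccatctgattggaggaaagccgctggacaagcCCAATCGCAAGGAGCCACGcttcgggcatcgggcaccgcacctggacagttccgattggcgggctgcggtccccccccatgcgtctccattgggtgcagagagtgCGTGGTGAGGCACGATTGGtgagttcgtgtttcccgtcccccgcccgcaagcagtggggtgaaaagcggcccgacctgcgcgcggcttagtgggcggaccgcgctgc
Dnajc3: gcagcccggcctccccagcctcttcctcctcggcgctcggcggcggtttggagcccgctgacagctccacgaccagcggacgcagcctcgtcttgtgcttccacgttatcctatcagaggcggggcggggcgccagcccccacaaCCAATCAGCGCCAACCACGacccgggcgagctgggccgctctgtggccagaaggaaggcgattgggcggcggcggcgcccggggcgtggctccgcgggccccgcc
Hsp90b1 held 2 matches, Hspa5 and Dnajc3 1 each. The 3 genes with it spanned 9.40 to 299 TPM in replicate 1, a wide range of levels for genes that share the element. Forms of the element with mismatches were not searched for, so the number of matches does not rank these windows.

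The mitochondrial chaperonin genes start close to each other. Hspd1, which encodes HSP60, and Hspe1, which encodes its lid HSP10, lie on opposite strands of chromosome 1. As annotated they overlap at their starts (Hspd1, 55077835 to 55088243; Hspe1, 55088132 to 55091307), and a RefSeq start of Hspd1 lies inside Hspe1. From another Hspd1 start the genes run away from each other. The bases between that start and the Hspe1 start are shown because they hold overlapping 3-unit matches, in capitals (chr1:55087933-55088147, plus strand).
Hspe1: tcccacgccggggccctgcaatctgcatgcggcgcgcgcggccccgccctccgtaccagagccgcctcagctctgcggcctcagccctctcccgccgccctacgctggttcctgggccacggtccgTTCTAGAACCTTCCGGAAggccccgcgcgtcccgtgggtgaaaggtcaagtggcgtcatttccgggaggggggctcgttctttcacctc
Hspe1 stood at 146 and 122 TPM in replicates 1 and 2. Hspd1 stood at 89.7 and 97.7 TPM. The log2 ratio of Hspe1 over Hspd1 was 0.51 ± 0.26 (SD, n = 2), positive in both libraries, but it turned to -0.45 in the deposited mm9 values. Hspa9, the HSP70 of mitochondria called mortalin, stood at 62.4 and 74.9 TPM, Dnajc19, part of the protein import motor, at 72.2 and 50.5 TPM, and Dnajc11, of the inner membrane organizing system, at 70.2 and 64.0 TPM. Dnajc15 stood at 39.6 and 36.1 TPM, and Dnaja3, the mitochondrial HSP40, at 19.4 and 21.8 TPM. All 8 mitochondrial genes listed, which include the iron-sulfur cluster co-chaperone Hscb, were detected.

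TRiC subunits were high and uneven. TRiC is a double ring with each subunit once per ring, of which Cct2, Cct3, Cct4, Cct5, Cct7 and Cct8 belong to the 81 genes. Cct5 stood at 292 and 279 TPM, Cct3 at 308 and 256 TPM and Cct7 at 216 and 190 TPM. Cct2 stood at 196 and 198 TPM, Cct8 at 149 and 148 TPM and Cct4 at 106 and 129 TPM. The subunits Cct6a and Tcp1 fall outside the rule: Cct6a, typed as a processed transcript in the annotation, at 86.2 ± 15.9 TPM (SD, n = 2), and Tcp1 at 155 and 187 TPM. Over Cct2 to Cct8 with Cct6a, the highest stood above the lowest by a log2 ratio of 1.78 ± 0.37 (SD, n = 2), although the ring holds equal numbers of each protein. Part of the Cct3 level lay in Cct3-203, a retained-intron transcript of 472 nucleotides, at 38.4% and 33.8% of its TPM. Counting only transcripts typed protein-coding, which leaves out Cct6a, the log2 ratio was 1.53 ± 0.16 (SD, n = 2). Cct6b, a subunit known from testis, was at 0.170 and 0.120 TPM, and Cct8l1 at 0.0100 and 0.0300 TPM. Prefoldin, which passes actin and tubulin to TRiC, was detected throughout, led by Pfdn5 at 252 and 275 TPM.

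The remaining 12 genes stayed below 1 TPM in at least one library. Hspb9, Dnajb8 and Dnajc5g, known from testis, were listed at 0 in both. For these, 3 counts would correspond to 0.0934, 0.0569 and 0.0649 TPM in replicate 1, which sets what this depth could show. Of 9 genes known from testis, 2 reached 1 TPM in both libraries: Hspa2 at 2.90 and 3.71 TPM and Dnajb3 at 10.5 and 7.44 TPM. Dnajb3 overlaps 8 Ugt1a genes on the opposite strand, each at 1.51 TPM or less.

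Gene totals hid a mixture of transcripts. Over the 69 detected genes, the median share of TPM in transcripts typed protein-coding in the annotation was 93.6%, against 97.7% over all detected protein-coding genes. In 5 genes it was below 50% in both libraries (Hspa5, Dnajc7, Dnajc15, Hspa4l and Hspbap1), or 7.25%, against 7.58% of all detected coding genes, so the share was near the background. Of these, Dnajc15 and Hspbap1 are listed with 1 transcript typed as a target of nonsense-mediated decay. Most Hspa4l transcripts have no entry in the annotation used and so were not counted as coding. Hspa8 was split between Hspa8-201, the coding transcript of 2394 nucleotides, at 42.7% and 55.9% of its TPM, and Hspa8-209, a processed transcript of 727 nucleotides, at 49.7% and 38.8%. Their order thus differed between the libraries. By expected counts the coding form led, at 170792 and 158920, against 46361 and 26142 for the short form. In Hspa5, a 477-nucleotide transcript typed as a decay target, Hspa5-204, held the larger part of TPM in both libraries, at 53.6% ± 5.19, against 42.1% ± 5.17 for the coding transcript (SD, n = 2 each). With coding transcripts only, Hsp90b1 over Hspa5 was -0.17 ± 0.14 (SD, n = 2) on the log2 scale.

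**Figure D4:**
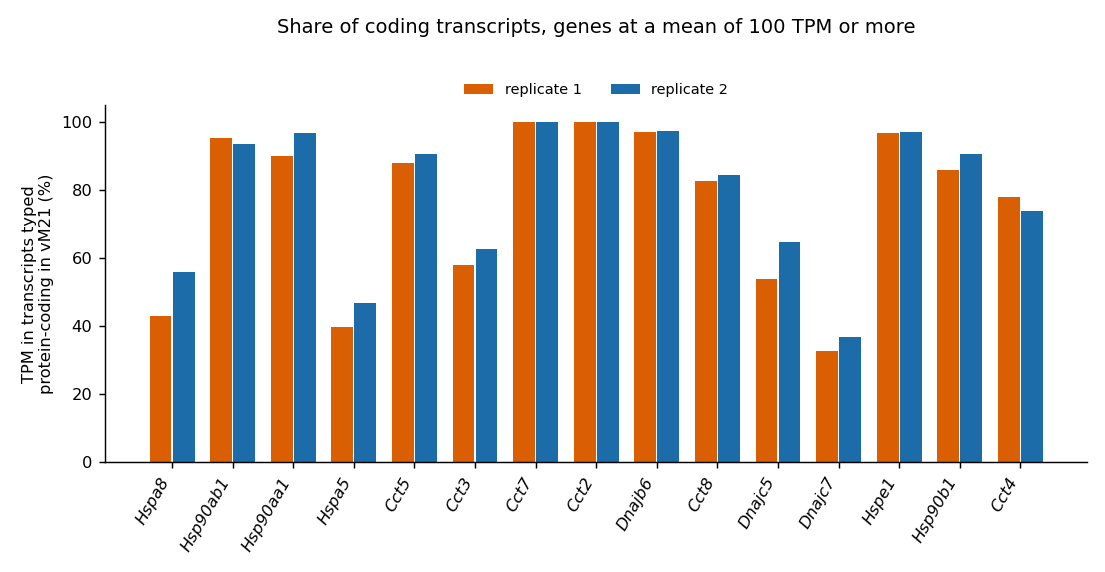
Share of each gene's TPM in transcripts typed protein-coding, in percent, for genes whose mean level reached 100 TPM, ordered by level, with replicate 1 and replicate 2 as neighbouring bars. Hspa8, Hspa5 and Dnajc7 are the lowest, and Cct7 and Cct2 stand at 100%.

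Splice junctions placed most of these genes on known introns. For the 52 genes with 1000 or more junction reads, the median share of reads on junctions not annotated was 1.00%, and 26 of them had 1% or more, against a median of 2.14% and 79.2% of 9285 protein-coding genes. Cct8 had 8.12%, almost all on 1 intron of 636 bases (mm9 chromosome 16, 87490910 to 87491545, minus strand) with 3220 reads. No annotated junction overlapped it, and the annotated junctions on either side had 4076 and 2720 reads. In Dnajc13, 2 unannotated junctions with 1123 and 394 reads frame a stretch of 109 bases (mm9 chromosome 9, 104055598 to 104055706), beside 881 reads on the annotated junction that spans it. Hspa12b, an HSP70 relative of vessels, had 149 reads on an unannotated intron of 98 bases, close to the 125 reads of its median annotated junction.

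The libraries differed in these genes about as much as in others: the median absolute log2 ratio was 0.25 in the chaperone genes and 0.26 in all coding genes. None of the 69 genes with a mean of at least 1 TPM was 2-fold or more higher in replicate 2, against 1.80% of all such coding genes, and none was 2-fold lower, against 0.740%, shares too low to set a count of 0 apart among 69 genes. At 1.5-fold, a threshold added after the data were seen, 4 genes were higher in replicate 2 (Dnaja1, Dnajc21, Hspa4l and Dnajc14), against 8.45% of coding genes, and Hspb1 was lower, against 5.86%. With expected counts scaled by TMM, 2 genes were higher and 2 lower. The log2 ratio had a median of 0.07 in the chaperone genes and 0.01 in coding genes, with 40 of 69 higher in replicate 2, or 49 of 69 when TPM was rescaled without mitochondrial, spike-in and Gm42418 rows and 37 of 69 with TMM. It rose with effective length, the part of a transcript from which fragments can start: Spearman's rho was 0.47 across the 69 genes and 0.45 across 13642 coding genes, which share these libraries and are not independent. Chaperone genes under 1000 nucleotides had a median of -0.27 (9 genes), those of 3000 or more a median of 0.20 (17 genes), and coding genes -0.28 and 0.21 at the same lengths. Of the 9 short chaperone genes, 7 were lower in replicate 2, among them Hspb1, Hspe1 and Dnajc19, and 2 were higher, among them Hspb11.

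**Figure D5:**
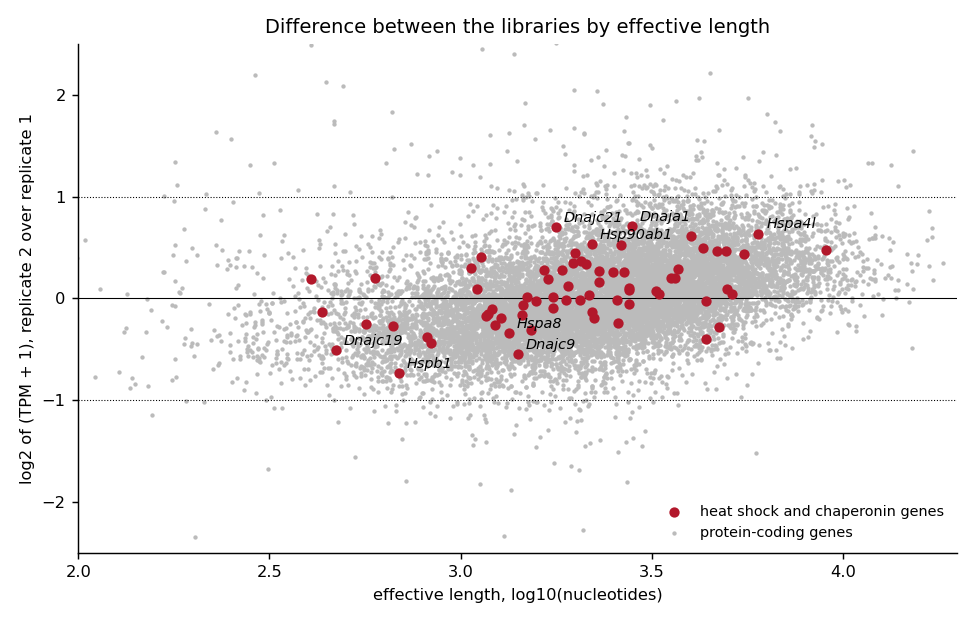
Log2 of (TPM + 1) in replicate 2 over replicate 1 against effective length on a log10 scale, for chaperone genes (red) and all coding genes whose mean reached 1 TPM (grey; 18 lie outside the axes). Dotted lines mark a 2-fold difference, and every red point lies between them, with short genes mostly below 0 and long genes mostly above.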

How the data were processed

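Gene and transcript tables of 2 libraries were used. Expected counts, TPM and FPKM were deposited by the authors on mm10 with GENCODE M4, per the labels and the sample text notes; the quantification tool: not given in the sources used here. Deposited TPM have the same sum in each library, with spike-in and mitochondrial rows included, so a change in those rows moves all others. Junction read counts were deposited by the authors on mm9 with both libraries summed, and the deposited mm9 RPKM, a level that carries 2 values per gene not tied to a replicate, were used as an alternative only.

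Symbols, transcript types and mm10 coordinates came from GENCODE vM21 by Ensembl identifier, and 884 genes without a symbol there could not be chosen. Transcripts can differ between the annotations: 58 of 79 leading transcripts had the same length in both. The members and lists were chosen with earlier results of these data known. Named genes were all those of the inducible, constitutive, endoplasmic reticulum, mitochondrial and TRiC lists, the highest 3 of each family, pairs, genes listed at 0, and the 2 highest of each partner list. Dnajc21, Dnajc14, Dnajc9, Dnajc8, Dnajc6, Hspa12b, Dnajb3, Hspa2, Cct8l1, Hspbap1, Hspb2, Hspb3 and Hspb7 were named after their values were seen. Levels are means with SD (n = 2), ratios are log2 of TPM within a library, and a pseudocount of 1 was added for differences between libraries. Detection meant 1 TPM or more in both. Shared sequence was counted as windows of 1 read length of vM21 transcripts. Expected counts rounded to whole numbers were scaled with edgeR 4.0.16 (TMM) and DESeq2 1.42.0 over 20211 genes, both steps tested on simulated data. Python 3.11.15, pandas 2.3.3, scipy 1.17.1 and R 4.3.3 were used.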

Additional observations from a re-analysis of the deposited data

How the results depend on the processing

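With 2 libraries of 1 group, the error of every value rests on 1 degree of freedom, and low genes are limited by depth. The count of 69 detected genes was 54 with mm9 RPKM and 50 to 73 with thresholds of 10 to 0.1 TPM; leaving out a library gave 69 to 70. The median level was 12.3 with FPKM, 23.5 with rescaled TPM and 1.89 with mm9 RPKM, which are other scales, and 19.4 to 20.2 with 1 library. The inducible minus constitutive difference was -2.28 with mm9 RPKM and -2.49 with coding transcripts, and -3.44 to -2.97 with 1 library. With mm9 RPKM, Hsp90aa1 over Hsp90ab1 was -1.23, Hspa1a plus Hspa1b over Hspa8 -5.70 (-6.81 with coding transcripts), the TRiC spread 2.20, and Hspe1 over Hspd1 turned to -0.45; the cause was not tested. With 1 library these were -1.13 to -0.63, -7.92 to -7.76 and 1.52 to 2.04, Hsph1 over Hspa4 -0.25 to 0.05, and Dnajb1 over Dnaja2 0.01 to 0.56. No alternative gave a 2-fold difference between the libraries. The 4 genes higher by 1.5-fold became 7 with rescaled TPM and 2 with TMM or DESeq2 factors, and the 1 lower became 2 with either. Of 108 alternative values in all, 89 stayed within the spread or within 1.5 times the count, 18 moved further and 1 changed sign. Part of this tally was fixed in advance. Leaving out 1 of 2 libraries cannot move a mean beyond its SD. FPKM and rescaled TPM cannot change a ratio of genes within a library, apart from rounding. The tally is thus not a measure of robustness. The moves not yet given were Hspb8 over Hspb1 at -0.60 and Hspa4l over Hspa4 at -2.67 with mm9 RPKM, and with coding transcripts Hspa4l over Hspa4 at -6.48 and Hsp90b1 over Hspa5 at -0.17. The alternatives for these 3 pairs and for Hspe1 over Hspd1 were listed after the data were seen. No paired analysis was possible because there is 1 group only.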
